A study of Homo sapiens with 6 samples.

Results

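The genes described here encode the enzymes that make, move and break down phosphoinositides, the phosphorylated forms of the membrane lipid phosphatidylinositol. They are phosphoinositide kinases, phosphatases and transfer proteins, the phospholipases C, and the PHLPP phosphatases that act on AKT. A list of 58 genes chosen by function was matched by gene symbol, and all 58 were found among the 60605 genes of the table. Poly(A) RNA was sequenced from SW480, an established human colon adenocarcinoma line, after infection with a lentivirus. The virus was empty in the vector libraries (n = 3) and carried TIPE, another name of TNFAIP8, in the TIPE libraries (n = 3). Both groups were grown under puromycin before RNA was taken. Neither the promoter that drives TIPE nor whether the cells were a clone or a pool is stated in the labels, which do not say whether the 3 libraries of a group were grown or infected apart. The p-values thus rest on a spread among libraries that may be purely technical.

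Cells add phosphates to phosphatidylinositol at the 3, 4 and 5 positions of its ring, and each combination marks a different membrane. The 4-kinases and 5-kinases make PIP2 at the plasma membrane, class I PI3K turns PIP2 into PIP3 below growth factor receptors, and class II and class III PI3K make the 3-phosphorylated lipids of endosomes and autophagosomes. Phosphatases remove each phosphate again, while phospholipase C cuts PIP2 into diacylglycerol and inositol trisphosphate, which releases calcium. In colon cancer the pathway is known for mutations that activate class I PI3K, and TNFAIP8-family proteins have been described as carriers of PIP2 and PIP3.

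The targeted gene matched the labels. TNFAIP8 was at 1.34, 0.950 and 0.840 FPKM in the vector libraries and at 626, 571 and 529.8 FPKM in the TIPE libraries. FPKM, as deposited, is the count scaled to exonic length and to the total of the library, and so compares levels between genes per length. The exonic length is 1 value per gene and may exceed that of the transcripts present. Levels and shares compared between genes depend on it. Total counts ranged from 13957349 to 20345330 per library. Of 9 colon epithelial markers 7 had a mean of at least 0.5 FPKM, with a summed level of 1246 to 1341 FPKM in vector and 1608 to 1664 FPKM in TIPE libraries, CDX1 at 0 and KRT20 under 0.1. Within that list KRT8, KRT18, KRT19 and CDX2 were higher in TIPE libraries, while the adhesion genes CDH1 (35.9 ± 1.32 to 13.7 ± 0.878 FPKM, SD, n = 3 each; edgeR adjusted p = 4.14e-12) and EPCAM (log2 fold change -0.20, adjusted p = 0.0309) were lower. Their part in the results on the 58 genes was not tested. Markers of other cell types were scarce, with summed levels of 1.78 to 3.32 FPKM over 6 fibroblast, 0.56 to 0.94 over 6 immune and 0.14 to 0.30 over 4 endothelial genes, and COL1A2, COL3A1, PTPRC, CD3E and KDR were at 0 in every library. The fibroblast gene LUM made up most of the sum of its list, at 1.94 ± 0.443 FPKM in vector and 2.22 ± 0.467 FPKM in TIPE libraries (SD, n = 3 each; edgeR adjusted p = 0.314). In those lists the fibroblast gene PDGFRB was higher in TIPE libraries (0.240 ± 0.0889 to 0.537 ± 0.0252 FPKM, SD, n = 3 each; adjusted p = 3.16e-07 in edgeR without a filter), and the immune gene CD14 averaged 0.503 FPKM. In bulk RNA, fewer cells of a kind and less RNA per cell cannot be told apart.

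Of the 58 genes, 53 had a mean of at least 0.5 FPKM over the 6 libraries and were tested together with all 14205 genes of that level. In TIPE libraries 7 of the 53 were higher and 17 were lower at an adjusted p under 0.05 (quasi-likelihood test of edgeR, p adjusted by Benjamini-Hochberg over all genes tested), and 29 did not pass. Over all genes tested, 20.9% were higher and 20.7% were lower, against 13.2% and 32.1% of the 53. Their median log2 fold change was -0.096, against -0.00048 over all genes. The lean towards falls was smaller when the dependence of each library on GC content and length of the genes was fitted and taken out, here called the GC correction. Under it 10 of the 53 were higher and 11 lower, against 17.5% and 16.8% of all genes, and the median was -0.023. On the FPKM scale, which carries no TMM scaling, the groups did not overlap for 33 of the 53 (62.3%), against 50.5% of all genes. Of the 24 calls, 15 held in the same direction under that correction and 11 passed in all 19 alternatives tried, namely PIK3CD, PIK3C2A, PIK3C2B, INPP5K, SYNJ1, OCRL, PIP4K2C, PLCD1, PLCG1, PLCH1 and PHLPP2. No change reached 2-fold. Passing with a fold of at least 1.5 were 5 of the 53, 3 upward (PLCD1, PIK3CD and INPP5K) and 2 downward (PIK3C2A and SYNJ1), and 6.7% of all genes met the same rule.

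**Figure D1:**
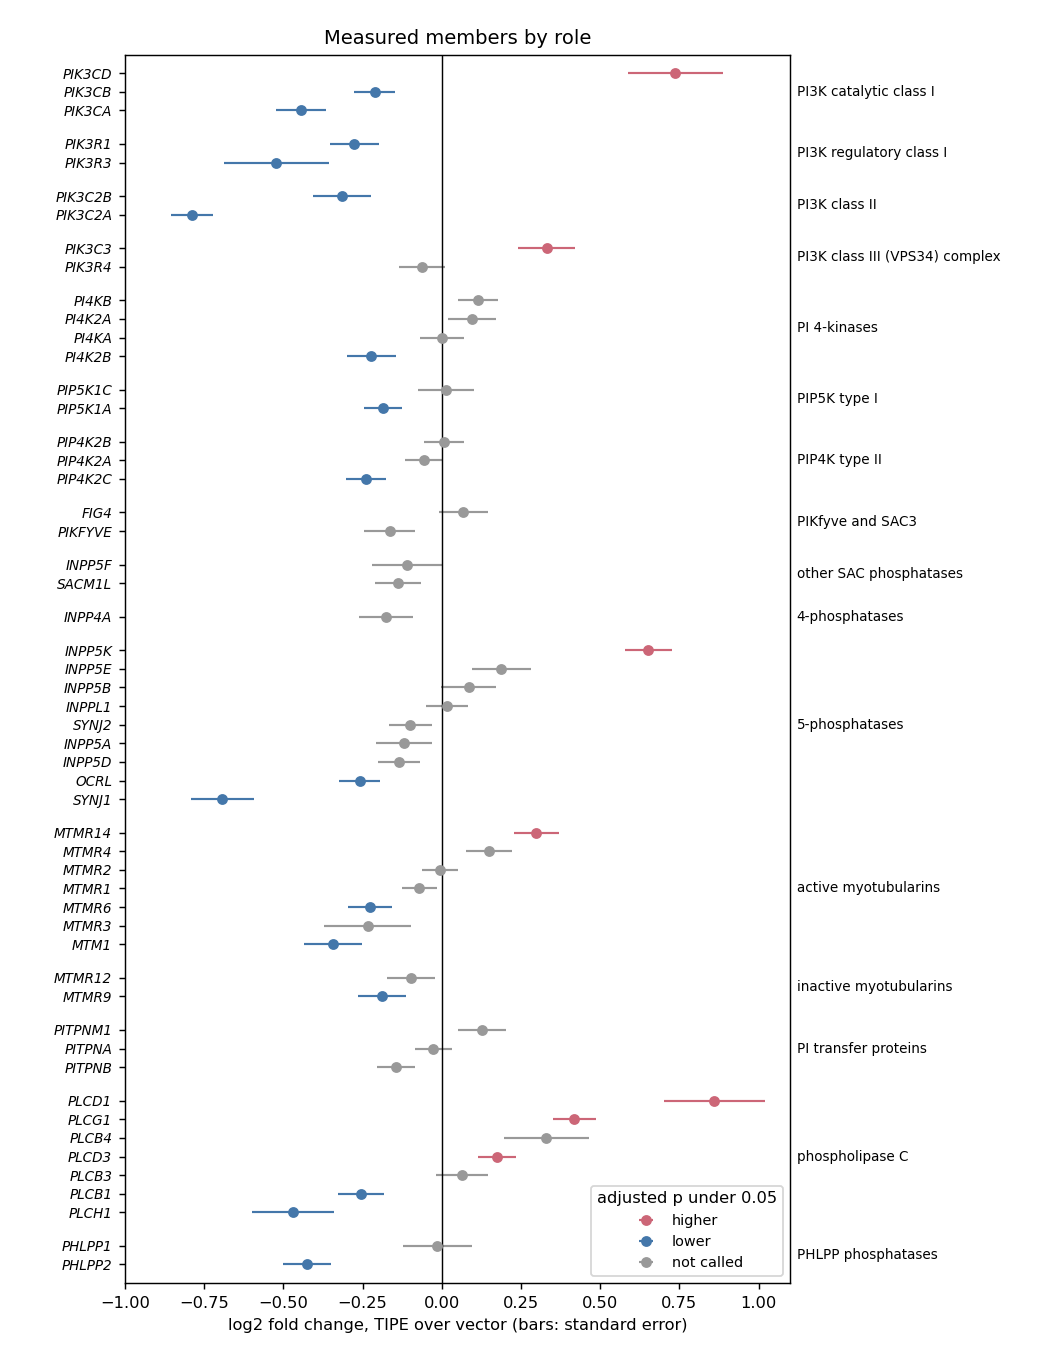
Log2 fold change of TIPE over vector libraries (horizontal axis, TMM-scaled edgeR fit, n = 3 against 3) with its standard error for the 53 measured genes, grouped by role. Red points passed as higher, blue as lower and grey did not pass; PLCD1 lies farthest to the right at 0.86 and PIK3C2A farthest to the left at -0.79.

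The promoters of members whose calls held in all 19 alternatives are shown for the 2 of largest rise and the 2 of largest fall that have an entry in the RefSeq promoter table (GRCh38.p14, the same assembly as hg38), to set genes of opposite change side by side. Each runs 5′ to 3′ on the strand of its gene, from 250 bases before to 50 bases after the start of the first RefSeq entry of that gene. That start can differ from the one of the deposited gene positions. The SYNJ1 window lies wholly outside the deposited SYNJ1 locus, which ends at 32728040. The windows are chr1:9651481-9651780 on the plus strand and chr17:1516563-1516862, chr11:17207937-17208236 and chr21:32728345-32728644 on the minus strand. Capitals mark matches on either strand to 6 motifs, the E-box (CACGTG), a CRE core (TGACGT), the CCAAT box (CCAAT), the GC box (GGGCGG), the TATA box (TATAAA) and an ETS site (CCGGAAG). The ETS site and the CRE core of PIK3C2A lie end to end, and no matches overlap in these windows. PIK3CD and INPP5K were higher and PIK3C2A and SYNJ1 lower in TIPE libraries.
PIK3CD promoter: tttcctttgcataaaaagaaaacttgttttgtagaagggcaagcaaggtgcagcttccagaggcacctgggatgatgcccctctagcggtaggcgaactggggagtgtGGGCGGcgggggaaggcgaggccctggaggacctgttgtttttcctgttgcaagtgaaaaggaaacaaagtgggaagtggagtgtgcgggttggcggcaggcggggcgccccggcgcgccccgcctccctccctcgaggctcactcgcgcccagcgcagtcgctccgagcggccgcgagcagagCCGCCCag
INPP5K promoter: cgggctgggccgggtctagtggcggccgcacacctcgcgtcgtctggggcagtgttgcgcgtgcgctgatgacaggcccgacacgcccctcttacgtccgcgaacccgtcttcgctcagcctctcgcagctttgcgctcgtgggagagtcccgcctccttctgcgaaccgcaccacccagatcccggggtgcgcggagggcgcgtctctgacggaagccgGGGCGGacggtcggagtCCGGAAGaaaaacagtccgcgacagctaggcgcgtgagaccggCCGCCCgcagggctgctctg
PIK3C2A promoter: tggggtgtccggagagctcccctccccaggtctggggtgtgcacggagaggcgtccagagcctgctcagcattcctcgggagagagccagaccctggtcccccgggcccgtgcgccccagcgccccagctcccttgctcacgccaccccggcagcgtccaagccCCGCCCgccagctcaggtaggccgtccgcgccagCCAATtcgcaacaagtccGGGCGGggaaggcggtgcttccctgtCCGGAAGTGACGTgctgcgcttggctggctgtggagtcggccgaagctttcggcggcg
SYNJ1 promoter: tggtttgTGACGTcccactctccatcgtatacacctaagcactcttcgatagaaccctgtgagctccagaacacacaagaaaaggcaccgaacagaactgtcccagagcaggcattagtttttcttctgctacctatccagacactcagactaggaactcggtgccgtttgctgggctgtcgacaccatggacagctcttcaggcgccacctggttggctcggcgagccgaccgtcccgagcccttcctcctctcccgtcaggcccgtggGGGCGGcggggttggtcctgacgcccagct

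All 4 windows held a GC box, and their GC content was 63.3%, 70.3%, 71.3% and 58.7% in the order shown, against a median of 58.7% over all 34796 promoters of 300 bases. PIK3C2A, whose transcript has 37.1% GC, has the window richest in GC of the 4. Of the 58 genes 52 had an entry (those without one were INPP5A, MTMR9, PI4K2A, PLCB1, PLCB4 and PLCD1), 47 of them measured. Of these 47, 39 held a GC box (83.0%, against 44.9% of all promoters), 17 a CCAAT box (36.2% against 34.6%), 8 an ETS site (17.0% against 10.2%), 6 an E-box (12.8% against 7.20%), 4 the CRE core (8.51% against 7.97%) and 0 a TATA box (against 11.6%). The 47 genes had passed the level filter, whereas the 34796 promoters were not limited to genes over it. The part of expression level in these differences from all promoters, in motifs and in GC content of the windows, was not tested. They are thus not shown to be a trait of this group of genes. The GC box was in 6 of 6 windows of higher and 12 of 15 of lower genes, and the ETS site in 3 of each. The E-box was in 5 of the 15 windows of lower genes and in 0 of the 6 of higher genes. A match is a description of these letters and not a binding site.

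Levels differed widely between members on the per-length scale. Averaged over the 6 libraries, the transfer protein PITPNB stood highest at 36.6 FPKM, followed by its paralog PITPNA at 29.7 and phospholipase C delta 3 (PLCD3) at 29.5 FPKM. The lowest member to pass the level filter was PIK3R3 at 0.660 FPKM. The median of the 53 was 5.61 FPKM, against 5.09 over all genes tested. PLCE1, PIP5K1B, PIK3R2, PLCG2 and INPP4B lay under the filter.

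Class II PI3K was lower in TIPE libraries, in both members listed. PIK3C2A (ENSG00000011405, chromosome 11, 17077730 to 17207983, hg38), which makes 3-phosphorylated lipids during clathrin-mediated uptake, was at 18.9, 19.98 and 18.4 FPKM in vector replicates 1, 2 and 3 and at 11.7, 10.4 and 9.49 FPKM in TIPE replicates 1, 2 and 3. The groups lay far apart, and the gene was 1.73-fold lower (log2 fold change -0.79, standard error 0.067, edgeR adjusted p = 2.20e-08). This was the smallest adjusted p among the 53, and the GC correction left a log2 fold change of -0.54 (adjusted p = 1.21e-06). PIK3C2B, the isoform implicated in receptor signalling and lysosomal control of growth, was at 2.85, 2.87 and 2.92 FPKM in vector and 2.48, 2.26 and 1.84 FPKM in TIPE libraries. It too lay lower in every TIPE library (log2 fold change -0.31, standard error 0.092, edgeR adjusted p = 0.00910).

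The 3 listed catalytic subunits of class I PI3K did not move together. PIK3CB, the p110 beta subunit and the most abundant of them, was at 8.22, 7.43 and 7.92 FPKM in vector and 6.21, 6.38 and 6.80 FPKM in TIPE libraries (log2 fold change -0.21, standard error 0.065, edgeR adjusted p = 0.0121). PIK3CA, the p110 alpha subunit mutated in many cancers, was at 2.17, 2.21 and 1.96 FPKM in vector and 1.58, 1.48 and 1.38 FPKM in TIPE libraries (log2 fold change -0.44, standard error 0.077, edgeR adjusted p = 0.000108). For both genes every TIPE library lay below every vector library. PIK3CD (ENSG00000171608, chromosome 1, 9651731 to 9729114), the p110 delta subunit best known from leukocytes, went the other way, from 0.750, 1.16 and 1.29 FPKM to 1.65, 1.83 and 1.58 FPKM, and was 1.67-fold higher (log2 fold change 0.74, standard error 0.15, edgeR adjusted p = 0.000521). Vector replicate 1 was the lowest for PIK3CD, and without it the log2 fold change was 0.54 (adjusted p = 0.00482). On the opposite strand the locus overlaps PIK3CD-AS2 by 15130 bp and the end of CLSTN1 by 189 bp. PIK3CD-AS2 was called higher too (log2 fold change 0.38, adjusted p = 0.0148), with 508 counts over the vector libraries against 334 for PIK3CD. Its part in the PIK3CD value was not tested. PIK3CD made up 9.67% ± 2.58 of the summed class I catalytic FPKM in vector and 17.5% ± 1.35 in TIPE libraries (SD, n = 3 each), and PIK3CB remained the larger part in every library. The PIK3CB call was lost without vector replicate 1 (adjusted p = 0.0650) or TIPE replicate 1 (0.0532). After the GC correction PIK3CD stayed higher at 0.63, whereas PIK3CA was at -0.11 and PIK3CB at -0.0086, and neither passed (adjusted p = 0.256 and 0.933).

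**Figure D2:**
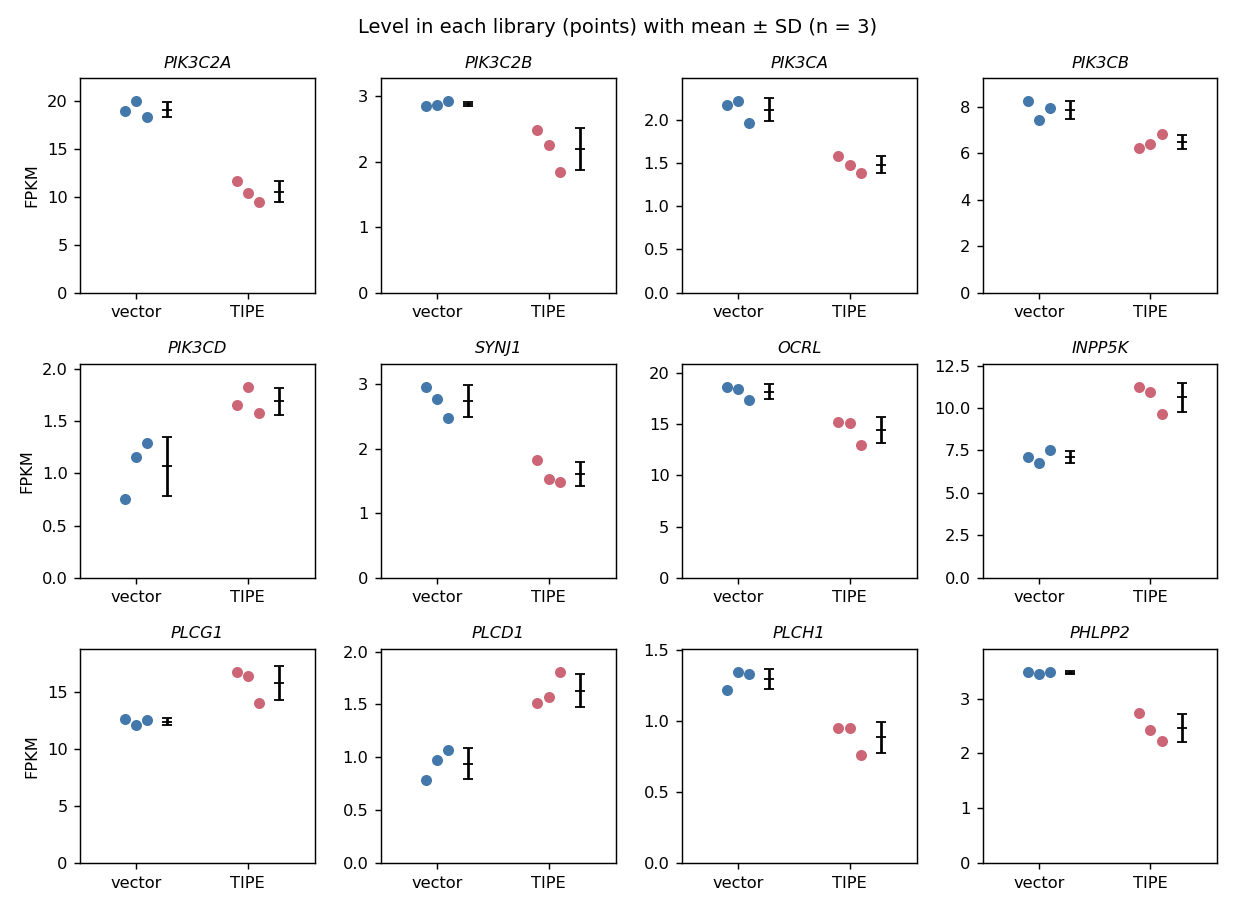
FPKM (vertical axes, each from 0) of 12 members in each of the 3 vector (blue) and 3 TIPE (red) libraries, with the mean and SD of each group in black. PIK3CD, INPP5K, PLCG1 and PLCD1 lie higher in every TIPE library than in any vector library, and the other 8 lie lower.

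The regulatory subunits hold the catalytic ones and bring them to receptors. Of these, PIK3R1 (p85 alpha), at 3.14, 3.07 and 2.76 FPKM in vector and 2.41, 2.18 and 2.50 FPKM in TIPE libraries, was lower in each TIPE library (log2 fold change -0.28, standard error 0.078, edgeR adjusted p = 0.00726). PIK3R3 (p55 gamma) was at 0.750, 0.850 and 0.780 FPKM and 0.410, 0.560 and 0.610 FPKM, again without overlap (log2 fold change -0.52, standard error 0.17, edgeR adjusted p = 0.0159). PIK3R2 (p85 beta) lay under the filter with 20, 26 and 11 counts in vector and 19, 39 and 18 counts in TIPE libraries and did not pass in the edgeR fit without a filter (adjusted p = 0.410). On the same strand, PIK3R2 overlaps a gene without a symbol by 17370 bp, and PIK3R3 overlaps P3R3URF-PIK3R3 by 89376 bp. How reads shared by such genes were counted is not stated. The part of these overlaps in the low counts of PIK3R2 and PIK3R3 was not tested. The PIK3R1 call was lost without TIPE replicate 2 (adjusted p = 0.0553) and under the GC correction (-0.048, adjusted p = 0.664). That of PIK3R3 was lost without vector replicate 2 (0.0781) or TIPE replicate 1 (0.0940), and in limma on log2(FPKM + 1) (0.0825) and log2(FPKM + 0.1) (0.0992).

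In the class III complex, which makes the endosomal and autophagic 3-phosphate lipid, the catalytic and the scaffold subunit differed. PIK3C3 (VPS34, the kinase) was at 1.34, 1.18 and 1.06 FPKM in vector and 1.46, 1.45 and 1.36 FPKM in TIPE libraries and was 1.26-fold higher (log2 fold change 0.33, standard error 0.091, edgeR adjusted p = 0.00603). Its scaffold PIK3R4 (VPS15) had 6.36, 5.81 and 6.09 FPKM in vector and 5.38, 5.51 and 5.74 FPKM in TIPE libraries, with a log2 fold change of -0.063 that did not pass (adjusted p = 0.526) and was 0.0098 under the GC correction. The 2 genes stand at 38.3% and 43.9% GC, with exonic sizes of 15170 and 5377 bases, and the correction covers both traits. Of the 53 genes, PIK3C3 grew most in its own direction under the correction, to 0.63 (adjusted p = 1.22e-05). It did not pass in limma on log2(FPKM + 1) (0.180) or with each library scaled to the same FPKM total (0.130).

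The kinases that build PI4P and PIP2 had small fold changes. Among the 4-kinases, which start the pathway at the Golgi, endosomes and plasma membrane, PI4KB was the most abundant, at 13.1, 14.6 and 14.3 FPKM in vector and 15.0, 14.4 and 13.9 FPKM in TIPE libraries, and its groups overlapped (log2 fold change 0.11, standard error 0.062, edgeR adjusted p = 0.149). PI4KB passed without TIPE replicate 3 (log2 fold change 0.14, adjusted p = 0.0368). PI4KA, the plasma membrane enzyme, had means of 10.3 ± 0.347 and 9.75 ± 1.05 FPKM and PI4K2A of 6.69 ± 0.373 and 6.79 ± 0.272 FPKM in vector and TIPE libraries (SD, n = 3 each), and neither passed (adjusted p = 1.000 and 0.344). PI4KA has the pseudogene copies PI4KAP1 and PI4KAP2 in the table, with means of 238 and 5.67 counts, so its reads may be divided among them. The endosomal PI4K2B was called lower (log2 fold change -0.22, standard error 0.079, edgeR adjusted p = 0.0280), but not without vector replicates 1 or 2 (adjusted p = 0.102 and 0.0911), without TIPE replicates 1 or 2 (0.0526 and 0.0960), in DESeq2 (0.0674) or under the GC correction (0.266). PI4K2B overlaps SEPSECS-AS1 by 40778 bp on the same strand, and the part of that overlap in its value was not tested.

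Of the 5-kinases that make PIP2 from PI4P, PIP5K1A was at 24.2, 23.9 and 24.9 FPKM in vector and 21.2, 21.0 and 19.0 FPKM in TIPE libraries and was lower by a small margin (log2 fold change -0.18, standard error 0.060, edgeR adjusted p = 0.0178), with a call lost without vector replicate 3 (adjusted p = 0.0649). PIP5K1C was at 0.014 (adjusted p = 0.916). PIP5K1B, under the filter with 28, 48 and 18 counts in vector and 22, 31 and 19 counts in TIPE libraries, contains the single-exon gene PABIR1 on the same strand. The type II kinases, which act on the minor lipid PI5P, included 1 lower gene. PIP4K2C was at 18.4, 18.9 and 17.9 FPKM in vector and 14.6, 15.5 and 14.4 FPKM in TIPE libraries without overlap (log2 fold change -0.24, standard error 0.063, edgeR adjusted p = 0.00449). PIP4K2B, at 17.7, 17.4 and 17.4 FPKM and 17.2, 17.5 and 15.3 FPKM, overlapped between groups (log2 fold change 0.0067, adjusted p = 0.944), and PIP4K2A had -0.056 (adjusted p = 0.477). With PIP4K2C lower, its share of the summed type II FPKM went from 37.6% ± 0.700 to 34.2% ± 0.636 (SD, n = 3 each).

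Among the 9 phosphatases that remove the 5-phosphate, 1 was higher and 2 were lower, and 6 did not pass, where 20.9% of all genes were higher and 20.7% lower. INPP5K (ENSG00000132376, chromosome 17, 1494577 to 1516742), also called SKIP, an enzyme of the endoplasmic reticulum that dampens insulin signalling, had 7.11, 6.78 and 7.51 FPKM in vector and 11.3, 10.9 and 9.65 FPKM in TIPE libraries. All TIPE libraries lay above all vector libraries, and INPP5K was 1.57-fold higher (log2 fold change 0.65, standard error 0.074, edgeR adjusted p = 9.02e-07). SYNJ1 (ENSG00000159082, chromosome 21, 32628759 to 32728040), synaptojanin 1, which strips PIP2 from clathrin-coated vesicles, was at 2.96, 2.77 and 2.47 FPKM and 1.82, 1.53 and 1.48 FPKM and was 1.62-fold lower (log2 fold change -0.69, standard error 0.10, edgeR adjusted p = 1.29e-05). OCRL, the endosomal and Golgi enzyme lost in Lowe syndrome, was at 18.7, 18.5 and 17.4 FPKM and 15.2, 15.1 and 12.9 FPKM (log2 fold change -0.26, standard error 0.066, edgeR adjusted p = 0.00321). Under the GC correction the 3 were at 0.53, -0.53 and -0.20, and all passed (adjusted p = 4.24e-06, 0.000205 and 0.0119).

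INPPL1 (SHIP2), the most abundant 5-phosphatase and one that acts on PIP3, was at 18.8, 19.9 and 19.6 FPKM in vector and 20.02, 19.3 and 16.8 FPKM in TIPE libraries, with overlap (log2 fold change 0.017, standard error 0.066, edgeR adjusted p = 0.859). INPP5K made up 10.1% ± 0.683 of the summed 5-phosphatase FPKM in vector and 15.9% ± 0.140 in TIPE libraries, SYNJ1 3.85% ± 0.317 and 2.41% ± 0.159, and OCRL 25.6% ± 0.738 and 21.6% ± 0.468 (SD, n = 3 each). INPP5A, INPP5B, INPP5D, INPP5E and SYNJ2 had log2 fold changes of -0.12, 0.085, -0.14, 0.19 and -0.10 and did not pass (adjusted p = 0.307, 0.470, 0.112, 0.117 and 0.262). INPP5E passed as higher without vector replicate 3, and INPP5A and INPP5D passed as lower under the GC correction (-0.24 and -0.19, adjusted p = 0.0440 and 0.0108).

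The 4-phosphatase INPP4A, which acts on the lipid left when PIP3 loses its 5-phosphate, was at 1.96, 2.09 and 2.22 FPKM in vector and 1.93, 1.69 and 1.66 FPKM in TIPE libraries (log2 fold change -0.18, standard error 0.085, edgeR adjusted p = 0.103). Its groups did not overlap, and it passed without TIPE replicate 1 (adjusted p = 0.0403). Its paralog INPP4B, known as a tumour suppressor in breast epithelium, had 0, 5 and 6 counts in vector and 1, 2 and 3 counts in TIPE libraries, too few to show a difference at this depth. SACM1L, the SAC-domain phosphatase that removes PI4P in the endoplasmic reticulum, was at 6.65, 6.21 and 6.09 FPKM and 5.25, 5.12 and 6.08 FPKM (log2 fold change -0.14, standard error 0.072, edgeR adjusted p = 0.134), and passed without TIPE replicate 3 (adjusted p = 0.0101), which was the highest of its group. INPP5F, a SAC phosphatase of endosomal PI4P, was at -0.11 (adjusted p = 0.465).

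PIKFYVE, the kinase that makes the doubly phosphorylated lipid of late endosomes, had 6.27, 5.90 and 5.04 FPKM in vector and 5.55, 4.43 and 4.67 FPKM in TIPE libraries, with overlap (log2 fold change -0.16, standard error 0.081, edgeR adjusted p = 0.112). It passed as lower without vector replicate 3 (adjusted p = 0.0361) or TIPE replicate 1 (0.00962), and was at 0.049 under the GC correction. FIG4, the phosphatase bound to PIKFYVE, had means of 0.940 ± 0.0100 and 0.933 ± 0.0404 FPKM (SD, n = 3 each). FIG4 did not pass at a log2 fold change of 0.069 (adjusted p = 0.503) and passed at 0.34 under the GC correction (adjusted p = 0.00159). That correction also covers length, and FIG4 has an exonic size of 28959 bases at 44.0% GC. The parts of length and GC content in this shift were not told apart.

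Myotubularins remove the 3-phosphate from endosomal lipids, and a few lack activity and serve as partners. Of the 7 active ones, MTMR14 was higher, MTM1 and MTMR6 were lower, and 4 did not pass, where 20.9% of all genes were higher and 20.7% lower. MTMR14 (jumpy), a regulator of autophagy, was at 5.10, 5.41 and 5.48 FPKM in vector and 6.54, 5.97 and 6.24 FPKM in TIPE libraries (log2 fold change 0.30, standard error 0.071, edgeR adjusted p = 0.00203). MTM1, the gene of X-linked myotubular myopathy, was at 5.30, 5.48 and 5.28 FPKM and 4.23, 4.18 and 3.61 FPKM (log2 fold change -0.34, standard error 0.091, edgeR adjusted p = 0.00470). Neither pair of groups overlapped, though MTMR14 missed with equal FPKM totals (adjusted p = 0.101), and MTMR6 also lay lower, at 8.04 ± 0.020 and 6.52 ± 0.309 FPKM (SD, n = 3 each; edgeR adjusted p = 0.0118). MTMR14 had 0.26 under the GC correction and passed there, while MTM1 (-0.22) and MTMR6 (-0.057) did not (adjusted p = 0.0733 and 0.565).

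MTMR1, the most abundant active myotubularin, was at 19.7, 19.2 and 18.9 FPKM and 17.6, 17.6 and 17.2 FPKM (log2 fold change -0.071, standard error 0.055, edgeR adjusted p = 0.323). MTMR2, MTMR3 and MTMR4 had log2 fold changes of -0.0062, -0.23 and 0.15 (adjusted p = 0.943, 0.185 and 0.106). MTMR2 and MTMR4 passed as higher under the GC correction (0.24 and 0.18, adjusted p = 0.00178 and 0.0454), and MTMR4 also passed without TIPE replicate 3. Of the inactive partners, MTMR12 was at 8.17, 9.18 and 9.06 FPKM and 8.25, 8.13 and 7.08 FPKM (log2 fold change -0.10, standard error 0.075, edgeR adjusted p = 0.329). MTMR9 was called lower (log2 fold change -0.19, adjusted p = 0.0490), but the call was lost on leaving out any 1 of the 6 libraries (adjusted p = 0.0587 to 0.122) and under the GC correction (0.916).

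None of the 3 transfer proteins, which carry phosphatidylinositol between membranes, passed. PITPNB was at 40.7, 39.2 and 38.0 FPKM in vector and 32.2, 32.2 and 37.1 FPKM in TIPE libraries (log2 fold change -0.15, standard error 0.060, edgeR adjusted p = 0.0573). TIPE replicate 3 was the highest of its group for PITPNB, and without that library the log2 fold change was -0.21 (adjusted p = 0.000646). PITPNA and PITPNM1 had -0.027 and 0.13 (adjusted p = 0.750 and 0.194), and PITPNM1 passed as higher without TIPE replicate 3.

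Of the 7 measured phospholipases C, 3 were higher, 2 were lower and 2 did not pass, where 20.9% of all genes were higher and 20.7% lower. The median of the 7 lay at 0.17 on the log2 scale, against -0.00048 over all genes. PLCD1 (ENSG00000187091, chromosome 3, 38007496 to 38029642), a delta isozyme activated by calcium, had 0.780, 0.970 and 1.07 FPKM in vector and 1.51, 1.57 and 1.81 FPKM in TIPE libraries. Every TIPE library lay above every vector library, and the 1.82-fold rise was the largest among the 53 (log2 fold change 0.86, standard error 0.16, edgeR adjusted p = 0.000193), on 194 counts summed over the vector and 344 over the TIPE libraries. PLCG1 (ENSG00000124181, chromosome 20, 41136960 to 41196801), the gamma isozyme that receptor tyrosine kinases phosphorylate, was at 12.7, 12.1 and 12.6 FPKM in vector and 16.8, 16.5 and 14.1 FPKM in TIPE libraries, again apart (log2 fold change 0.42, standard error 0.066, edgeR adjusted p = 3.78e-05). PLCG1 shares 18354 bp of its locus with ZHX3 on the opposite strand, which was at -0.23 on the log2 scale. PLCD3, by far the most abundant isozyme, was at 27.7, 27.6 and 30.1 FPKM and 32.5, 30.3 and 28.9 FPKM, with overlap (log2 fold change 0.17, standard error 0.061, edgeR adjusted p = 0.0271). That call was lost without vector replicates 1 or 2 (adjusted p = 0.140 and 0.149), without TIPE replicates 1 or 2 (0.120 and 0.0733) under the GC correction (0.049, adjusted p = 0.488), in both limma fits, with total counts and with equal FPKM totals.

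Among the lower phospholipases C, PLCH1, an eta isozyme best known from neurons, was at 1.22, 1.35 and 1.33 FPKM in vector and 0.950, 0.950 and 0.760 FPKM in TIPE libraries (log2 fold change -0.47, standard error 0.13, edgeR adjusted p = 0.00621). PLCB1, a beta isozyme driven by G protein-coupled receptors, was at 1.77, 1.86 and 1.86 FPKM and 1.46, 1.47 and 1.44 FPKM (log2 fold change -0.25, standard error 0.074, edgeR adjusted p = 0.00849), and was at 0.0086 under the GC correction (adjusted p = 0.941). Its sister PLCB4 lay higher in every TIPE library, at 0.910 ± 0.104 and 1.1 ± 0.0404 FPKM (SD, n = 3 each), with a log2 fold change of 0.33 that missed the threshold (adjusted p = 0.0526) and passed without vector replicate 2 and under the GC correction (0.52, adjusted p = 0.00393). PLCB3 had 0.065 (adjusted p = 0.567). Under the filter, PLCE1, which RAS-family GTPases activate, had 96, 120 and 72 counts in vector and 40, 72 and 61 counts in TIPE libraries. PLCE1 was 1.62-fold lower in the edgeR fit without a filter (log2 fold change -0.69, standard error 0.17, edgeR adjusted p = 0.000410), where 20.1% of all genes passed in either direction, and this held on leaving out any 1 library (adjusted p up to 0.0374). The GC correction and the other scalings were fitted only to genes over the filter, so PLCE1, at 42.9% GC, was not tried under them. PLCG2, the gamma isozyme of blood cells, had 31, 42 and 46 and 44, 68 and 22 counts and did not pass (adjusted p = 0.632). Within the summed phospholipase C FPKM, PLCG1 held 23.9% ± 0.570 in vector and 27.5% ± 1.2 in TIPE libraries and PLCD3 54.6% ± 1.65 and 53.2% ± 0.688 (SD, n = 3 each).

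PHLPP1 and PHLPP2 act on protein, removing a phosphate that activates AKT. PHLPP2 was at 3.49, 3.44 and 3.49 FPKM in vector and 2.74, 2.42 and 2.23 FPKM in TIPE libraries, without overlap (log2 fold change -0.42, standard error 0.077, edgeR adjusted p = 0.000155), and was at -0.27 under the GC correction (adjusted p = 0.00482). It overlaps MARVELD3 by 4280 bp on the opposite strand, and MARVELD3 had a log2 fold change of -1.35 on fewer counts, 774 against 2138 for PHLPP2 over the vector libraries. No source used here says if strand entered the counting, and the part of MARVELD3 reads in the PHLPP2 value was not tested. The same doubt holds for PIK3CD and PLCG1, with the partners given, and for PIK3CA (KCNMB3), MTMR2 (CEP57), FIG4 (AK9), PI4KB (ZNF687), PI4KA (SNAP29), PLCD3 (NMT1 and ACBD4), PITPNA (PITPNA-AS1), PITPNB (TTC28-AS1), MTMR3 and PIK3C2B (antisense genes without a symbol), which also overlap a counted gene on the opposite strand. PHLPP1, at 1.36 ± 0.0265 and 1.28 ± 0.161 FPKM (SD, n = 3 each), did not pass (log2 fold change -0.014, adjusted p = 0.933). PHLPP1 made up 28.1% ± 0.372 of the summed FPKM of the pair in vector and 34.2% ± 0.545 in TIPE libraries (SD, n = 3 each).

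**Figure D3:**
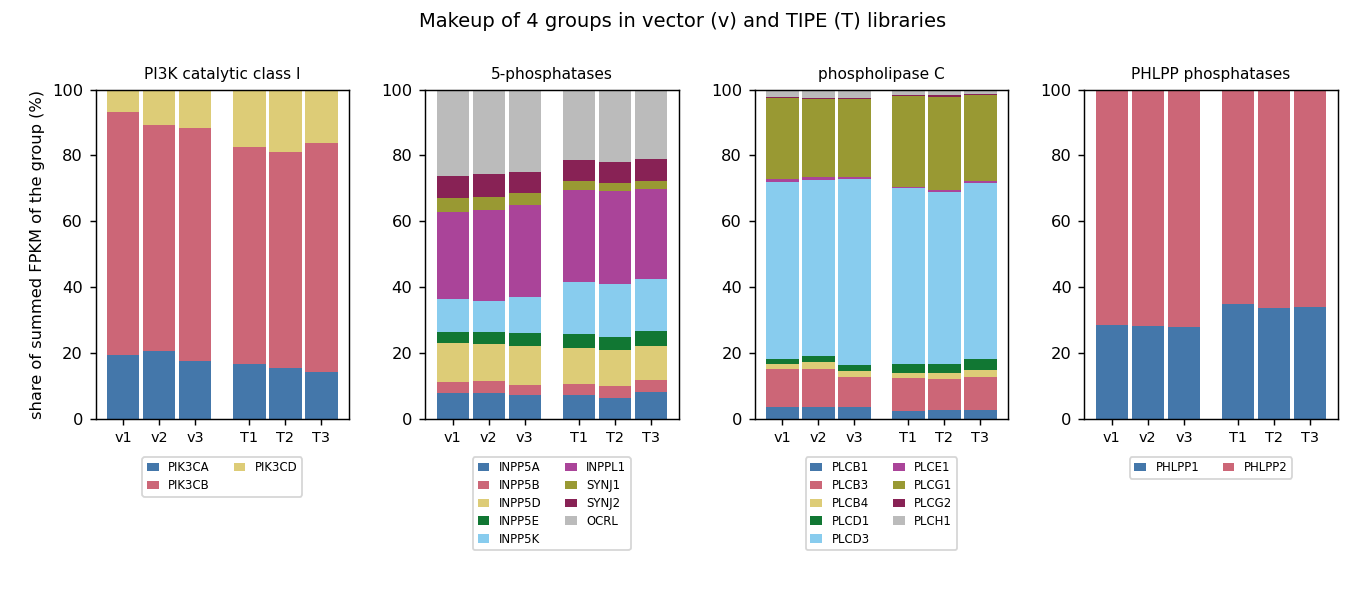
Share of each gene (colours, vertical axis in percent) in the summed FPKM of its group in vector libraries 1 to 3 (v1 to v3) and TIPE libraries 1 to 3 (T1 to T3), a measure free of library scaling. In TIPE libraries PIK3CD takes a larger part of the class I catalytic genes, INPP5K of the 5-phosphatases, PLCG1 of the phospholipases C and PHLPP1 of the PHLPP pair.

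GC content moved with these fold changes. Over the 53 genes the Pearson correlation of log2 fold change with the GC content of the longest transcript was 0.536 (Spearman 0.562), and it was 0.313 (Spearman 0.416) over 14115 genes tested that had a GC value. These are descriptions across genes of the same 6 libraries, and genes are not replicates. The 17 lower genes had a median GC content of 41.6% (34.8% to 54.0%), the 7 higher genes one of 56.5% (38.3% to 60.3%), and the 29 others one of 50.1% (39.2% to 65.0%). After the GC correction the correlation over the 53 was 0.140 (Spearman 0.0714). That correction takes out such a trend over all genes without regard to group, so a lower correlation was built into it. A real difference that goes with GC content or length would be taken out too. Calls lost under the correction were those of PIK3CA, PIK3CB, PIK3R1, PI4K2B, MTM1, MTMR6, MTMR9 and PLCD3, with PLCB1 at the opposite sign. New calls there were INPP5A and INPP5D lower and FIG4, MTMR2, MTMR4 and PLCB4 higher. The correction also covers exonic size, which was 28959 bases for FIG4 and 13952 bases for MTMR2. The parts of GC content and of size in it were not told apart. The part of GC content in the uncorrected values was not tested further.

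**Figure D4:**
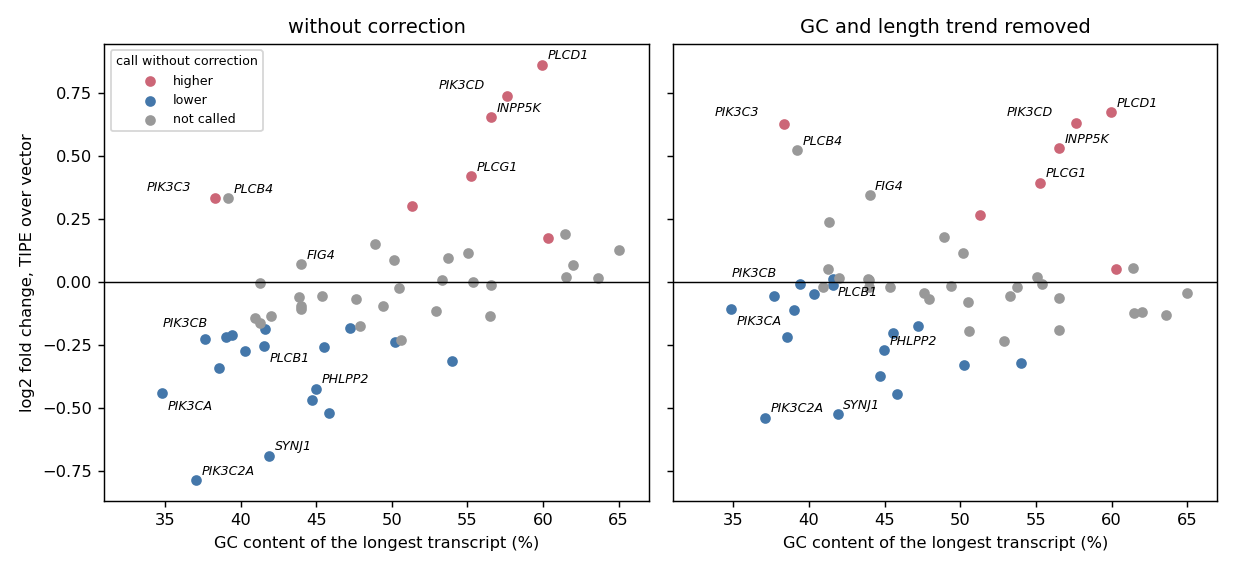
Log2 fold change of TIPE over vector libraries (vertical axis) against the GC content of the longest GENCODE transcript (horizontal axis, percent) for the 53 measured genes, as fitted (left) and under the correction for GC content and length (right). Colours give the call without correction; the low-GC genes PIK3CA and PIK3CB move towards 0 on the right, while PIK3C2A, SYNJ1, PIK3CD, INPP5K, PLCG1 and PLCD1 keep their sides.

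Other genes of the pathway were listed apart from the 58, and their counts stand against 20.9% higher and 20.7% lower over all genes. The counts and medians of these lists were not taken under the GC correction. Of 25 measured enzymes and adaptors of phosphoinositide turnover, 4 were higher and 6 lower (16% and 24%), and the median lay at -0.086 on the log2 scale. The myotubularin-like SBF2 and the PI4KA partner FAM126A were lower (-0.36 and -0.48), the latter not under the GC correction (adjusted p = 0.217). The transfer protein PITPNC1, PLCXD1 and PIP4P1, a phosphatase of endosomal PIP2, were higher (0.38, 0.34 and 0.29). The PIP4P1 call was lost in 8 of 19 alternatives, among them the GC correction (adjusted p = 0.0807), both limma fits, total counts, equal FPKM totals (up to 0.212) and the fits without vector replicate 3 (0.0525) or TIPE replicate 2 (0.0588).

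Of 21 measured genes for the supply of phosphatidylinositol and the recycling of diacylglycerol, 6 were higher and 6 lower (28.6% and 28.6%), with a median of -0.029. ISYNA1, the enzyme that makes inositol from glucose 6-phosphate, rose 1.78-fold, from 2.02 ± 0.162 to 3.41 ± 0.0777 FPKM (SD, n = 3 each; edgeR adjusted p = 1.33e-05). Diacylglycerol kinases went both ways, with DGKA at 0.46 and DGKE and DGKH at -0.59 and -0.68, and the phosphatidate phosphatase LPIN2 was at -0.35. AGPAT2, an acyltransferase that makes phosphatidic acid, was at 0.25 and at -0.010 under the GC correction. The calls of DGKA and AGPAT2 were lost in both limma fits (adjusted p up to 0.107 for DGKA), and that of AGPAT2 also with equal FPKM totals. Of 16 measured inositol phosphate enzymes, 5 were higher and 3 lower (31.2% and 18.8%), with a median of 0.076. IMPA2, which releases free inositol, INPP1, which acts a step before it, and NUDT4, a pyrophosphate hydrolase, were higher (0.54, 0.28 and 0.23), while the kinases IPMK and PPIP5K2 and the hydrolase NUDT3 were lower (-0.36, -0.30 and -0.32). Under the GC correction IPMK, PPIP5K2 and NUDT3 did not pass, and PPIP5K2 was at 0.020. NUDT4 missed in both limma fits and with equal FPKM totals (adjusted p up to 0.250). INPP1 missed with equal FPKM totals (0.141) and with the replicate number added to the GC correction. NUDT3 also missed without vector replicate 1 (adjusted p = 0.0508).

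Of 14 measured genes on a list of PIP3 effectors, PDK1, SGK kinases and readers of related lipids, 3 were higher and 8 lower (21.4% and 57.1%). Their median was -0.25 against -0.00048 over all genes. The higher ones were the GTPase regulators ARAP3, ARAP1 and CYTH2 (0.64, 0.34 and 0.35), and among the lower ones were the tyrosine kinase TEC (from 0.997 ± 0.0379 to 0.480 ± 0.0557 FPKM, SD, n = 3 each; edgeR adjusted p = 0.000442), CYTH3 (-0.42) and ARAP2 (-0.39, not passing under the GC correction). Of 27 measured transport proteins that read phosphoinositides, 6 were higher and 10 lower (22.2% and 37.0%), with a median of -0.048. WIPI1, which reads the class III PI3K product on autophagosomes, rose 1.70-fold, from 9.05 ± 0.468 to 14.7 ± 0.335 FPKM (SD, n = 3 each; edgeR adjusted p = 5.78e-08). The endosomal HGS and the autophagy protein WIPI2 were also higher (0.25 and 0.17). HGS missed in both limma fits and with equal FPKM totals (adjusted p up to 0.145), and the WIPI2 call was lost on leaving out any library other than TIPE replicate 1 (adjusted p = 0.0510 to 0.109) under the GC correction (0.0689) and in limma on log2(FPKM + 1) (0.213). EEA1, the early endosome tether, WDFY3 and the PI4P-binding PLEKHA8 were lower (-0.58, -0.59 and -0.52).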

How the data were processed

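The authors deposited 1 table of 60605 genes. Per the file headers it gives a count and an FPKM value per library, with exonic size, position on the chromosome, symbol and description. Deposited counts are integers whose totals differ between libraries, and they were used as raw counts. The authors' FPKM values are those counts scaled to exonic size and library total, to within 0.005. Per the submitters' processing notes, HISAT2 2.0.1 and hg38 were used. What counted the reads, on which annotation release and with which strand setting, is not stated in the labels or headers, so genes that overlap another gene on either strand are uncertain.

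The members and lists were chosen with earlier results of these data known. The 14205 genes averaging 0.5 FPKM or more were fitted with edgeR 4.0.16 (quasi-likelihood, TMM factors 0.962 to 1.03, group alone, R 4.3.3), two-sided, with Benjamini-Hochberg adjustment over all of them. Standard errors are the absolute log2 fold change over the square root of F. Fold changes are TMM-scaled and FPKM values are not, so ratios of FPKM means differ slightly from them. GC content came from GENCODE 29 transcripts (58337 genes, all 58 members). The GC correction was an offset per library from natural splines of GC content and log exonic size, fitted without a term for group. The test was checked on simulated data with few changed genes and no GC or length trend. Here 41.5% of genes passed and fold changes went with GC content, which that check does not cover. Alternatives used DESeq2 1.42.0 and limma 3.58.1 (log2(FPKM + 1) and log2(FPKM + 0.1)), 4 other scalings, 3 filters, a replicate block and each library left out. For a gene at 0, counting error alone leaves room for 3 counts (0.147 to 0.215 CPM). Pairs of replicates had a chi-square per gene of 2.39 to 8.63, above sampling noise, and pairs across groups one of 25.0 to 47.1. TIPE replicate 3 stood farthest off, at 8.63 and 8.17 from TIPE replicates 1 and 2, which were at 3.30 from each other. Values in every library are given for the 10 genes of smallest adjusted p in each direction (7 passed as higher), the most abundant gene of each role, and genes under the filter that passed without it. Pathway genes are up to 3 per list and direction by adjusted p, and a gene that this rule names is not reported here. PIK3R3, PIK3C2B and INPP5D, whose values are also given, and the 4 promoters were chosen after the values were seen.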

Additional observations from a re-analysis of the deposited data

How the results depend on the processing

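Of the 24 calls among the 53 genes, 11 held in all 19 alternatives, 12 were lost in at least 1 and 1 changed sign in at least 1. Under the GC correction the counts were 10 higher and 11 lower with a median of -0.023, beside 2488 and 2381 of all genes. With the replicate block added to that they were 9 and 10 with a median of -0.025, beside 2317 and 2209 of all genes. Of the 6 genes newly called under the correction, INPP5A and MTMR4 were not called with that block and the other 4 were. With each library scaled to the same FPKM total, which moved the median of all genes to -0.14, 4 were higher and 30 lower with a median of -0.23, beside 1458 and 4800 of all genes. With total counts alone the median was -0.17, with 6 higher and 23 lower, and in limma on log2(FPKM + 0.1) it was -0.16, where the median of all genes lay at -0.072 and -0.070. Limma on log2(FPKM + 1) and on log2(FPKM + 0.1) called 1912 and 1902 genes higher and 3242 and 3248 lower over all genes, and total counts alone 2137 and 3880, against 2967 and 2935 as reported. TMM factors were 1.01 to 1.03 in vector and 0.962 to 0.985 in TIPE libraries, and the settings with total counts, equal FPKM totals and limma do not use them. Why the groups differ in these factors was not tested. On leaving out 1 library, 6 to 10 members were higher and 14 to 18 lower, with medians of -0.11 to -0.054. Over all genes 2205 to 3184 were then higher and 2286 to 3153 lower, and each count was largest without TIPE replicate 3. Under the filter, PLCE1 alone passed for each library left out, 1 of 5. The replicate block alone gave 7 and 16, beside 2804 and 2797 of all genes, changing only the call of MTMR9 among the members. Labels of the 2 groups share only a number. Deviations of same-numbered libraries correlated at -0.043, -0.058 and -0.10, and those of the other pairs at -0.059 to 0.10. With 3 libraries per group these values cannot show whether same-numbered libraries share a batch.

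Under the GC correction, without and with the block, PLCB1 was at 0.0086 and 0.010, PIK3R4 at 0.0098 and 0.010, PIKFYVE at 0.049 and 0.047, SACM1L at 0.014 and 0.012, AGPAT2 at -0.010 and -0.010, PPIP5K2 at 0.020 and 0.018, INPPL1 at -0.12 and -0.13, and PIP4K2B at -0.058 and -0.060. INPPL1 and PIP4K2B, neither called, were at -0.054 and -0.065 with total counts, -0.12 and -0.13 with equal FPKM totals, -0.056 and -0.066 in limma on log2(FPKM + 1) and -0.059 and -0.069 on log2(FPKM + 0.1), and PI4KB was at -0.023 with equal FPKM totals. On leaving out 1 library INPPL1 ranged over -0.029 to 0.092, PIP4K2B over -0.041 to 0.070 and PLCG2 over -0.12 to 0.40. The depth leaves INPP4B, with at most 6 counts per library, undecided.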

Other observations

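Some members are best known from blood cells and were measured here in an epithelial line. INPP5D, which encodes SHIP1, the PIP3 5-phosphatase of leukocytes, was at 8.39, 8.30 and 8.14 FPKM in vector and 7.66, 7.38 and 6.43 FPKM in TIPE libraries, above PIK3CA and PIK3R1 on the same per-length scale. Over the 6 immune markers the summed level was 0.65 to 0.78 FPKM in vector and 0.56 to 0.94 FPKM in TIPE libraries. Of these CD14 averaged 0.503, LYZ 0.175 and CD68 0.0233 FPKM over the 6 libraries, and PTPRC and CD3E were at 0. PLCG2, another enzyme of blood cells, had a mean of 0.187 FPKM, against 14.1 FPKM for its paralog PLCG1.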
